A study of Mus musculus with 12 samples.

Results

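The 6 mature arms of 3 mouse miRNA hairpins, miR-3068, miR-872 and miR-674, were followed in exosomes of primary hepatocytes across a high-fat feeding course. They are 6 of the 1965 mature miRNAs listed in the deposited table, and 5 of the 6 had reads. They were picked because the more abundant arm of each hairpin (miR-3068-5p, miR-872-5p and miR-674-3p, called the main arms) is lower after 4 weeks of high-fat diet (HFD) than in lean exosomes. The 4-week and lean values of the members therefore describe the choice and are given with no test. On the deposited scale the libraries at 16 weeks of HFD overlapped the lean range for miR-3068-5p and miR-872-5p. For miR-674-3p all of them lay below it, as they did for 9.74% of all miRNAs tested. The 4-week difference depended on the scaling. Counted per read of miR-101b-3p, the most abundant miRNA, the 4-week libraries of miR-3068-5p and miR-872-5p also overlapped the lean ones.

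Exosomes are small vesicles that cells release. The groups are exosomes of primary mouse hepatocytes (passage 0) labelled lean, with control as treatment, 4wks HFD and 16wks HFD, with 4 libraries each. All of these cultures were grown in Williams’ E Medium, to which glutamax and fetal bovine serum had been added. Strain, age and sex of the mice are not given in the sources used here. Whether each library had its own mouse is not given either, so p-values measure only the spread between these libraries, which may be technical.

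A miRNA hairpin is cut into a duplex of a 5p and a 3p strand. One strand is usually kept in Argonaute, where its seed (bases 2 to 8 from the 5′ end) pairs with target mRNAs, and the other is mostly degraded. The balance of the arms differs between hairpins, and exosome cargo can hold either arm.

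The mature sequences below show how the members differ, with the seed in capitals (RefSeq, GRCm38.p6; mmu marks the mouse miRNA and is left out in most of the text).
mmu-miR-3068-5p: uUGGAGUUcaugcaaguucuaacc
mmu-miR-3068-3p: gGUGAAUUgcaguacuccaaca
mmu-miR-872-5p: aAGGUUACuuguuaguucagg
mmu-miR-872-3p: uGAACUAUugcaguagccuccu
mmu-miR-674-3p: cACAGCUCccaucucagaacaa
mmu-miR-674-5p: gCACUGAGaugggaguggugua

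The seeds of the members all differ. For 5 of the 6, no other mouse miRNA in the table of 1679 mature names has the same seed, so no family could be set beside them. The seed of miR-674-5p is also that of 2 others, shown for comparison.
miR-3473d: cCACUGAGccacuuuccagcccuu
miR-1947-3p: gCACUGAGcuagcucucccucc
Both were nearly absent: miR-3473d had at most 68.2 CPM (the unit of the deposited table, reads scaled to the same total of listed miRNAs in each library) in any library and miR-1947-3p had 1 read in all. The longest stretch shared by members of different hairpins is the 9-base AUUGCAGUA of miR-3068-3p and miR-872-3p, which begins at base 6 of miR-3068-3p and at base 7 of miR-872-3p. A short motif linked in other cells to loading of miRNAs into exosomes, GGAG, is in miR-3068-5p and miR-674-5p, 2 of 6 members, against 14.2% of the 1674 listed miRNAs with a sequence. The motif GGCU, described in hepatocyte exosomes, is in 0 of 6 against 13.3%. Both were searched on the RNA strand only, and a match is a description of the letters.

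The hairpins are shown with their mature arms in capitals, to place each arm (RefSeq, GRCm38.p6, the build the labels also name as mm10).
Mir3068: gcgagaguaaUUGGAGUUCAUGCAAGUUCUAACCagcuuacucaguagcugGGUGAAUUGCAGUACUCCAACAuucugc
Mir872: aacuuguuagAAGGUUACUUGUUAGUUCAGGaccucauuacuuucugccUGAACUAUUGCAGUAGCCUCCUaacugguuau
Mir674: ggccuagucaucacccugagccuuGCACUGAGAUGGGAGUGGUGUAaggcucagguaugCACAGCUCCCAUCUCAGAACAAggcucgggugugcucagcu

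Mir3068 lies on the minus strand of chr12:87437679-87437757, in an intron of Alkbh1, which encodes a nucleic acid demethylase. GENCODE M21 also annotates a snoRNA (chromosome 12, 87437682 to 87437817) and the lincRNA Gm29362 over it on the same strand, and their reads and those of the miRNA arms cannot be told apart by position. Mir872 lies on the plus strand of chr4:94665157-94665237, in an intron of Ift74, a subunit of the intraflagellar transport complex that builds cilia. Mir674 lies on the plus strand of chr2:117185127-117185226 in no other annotated gene, 2848 bases past the end of Spred1, an inhibitor of Ras signalling. No other miRNA hairpin lies within 50000 bases of any of them. By RNAfold, Mir674 folds with -60.9 kcal/mol, against -31.3 for Mir3068 and -31.4 for Mir872.

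Depth, as reads recovered from the CPM, ran from 13748 to 30430 per library in lean, from only 2352 to 4477 at 4 weeks and from 20538 to 37596 at 16 weeks, so that 1 read equals 223 to 425 CPM at 4 weeks and at most 72.7 CPM elsewhere. A single miRNA, miR-101b-3p, took 61.9% ± 6.37 of the lean CPM, against 25.2% ± 9.01 after 4 weeks of HFD and 60.4% ± 6.77 after 16 (SD, 4 libraries per group). Every other CPM moves with it, since the values are shares of 1 total. Of the hepatocyte markers, miR-192-5p and miR-802-3p were in all 12 libraries, but all others on the list were nearly absent. Over all libraries miR-122-5p, the defining miRNA of hepatocytes, had 3 reads, miR-122-3p had 2, miR-194-5p had 1 and miR-802-5p had 3. The summed CPM of the 6 hepatocyte markers lay between 3476 and 7427 in lean, 893 and 2565 at 4 weeks and 7914 and 18566 at 16 weeks. Most of that sum was miR-802-3p, with group means of 4951 (lean), 1425 (4 weeks) and 11493 CPM (16 weeks). The levels of miR-192-5p ran in another order, with means of 238, 571 and 1118 CPM, and made up a larger part of the sum at 4 weeks. Among 6 leukocyte markers 2 were above 0 (miR-146a-5p and miR-155-5p), with sums of 2845 to 14499 CPM in lean, 11392 to 31484 at 4 weeks and 23100 to 43294 at 16 weeks. The defining leukocyte miRNAs miR-223-3p, miR-142a-3p and miR-150-5p were at 0. Of the endothelial markers 1 of 2, of the red blood cell markers 2 of 3 and of the stellate cell and fibroblast markers 0 of 4 were above 0 in any library, with sums of at most 26.6, 1026 and 0 CPM. These leukocyte sums and those of the red blood cell markers hold miR-155-5p and miR-486a-5p, which are among 7 miRNAs whose lean and 16-week values look exchanged. Of their 46 values above 0 in these groups, 0 were whole reads of their own library and 44 were whole reads of the same-numbered library of the other group. The sums use these values as deposited, and so do the limma fits. By itself, miR-146a-5p averaged 4221 CPM in lean, 19646 CPM at 4 weeks and 33042 CPM at 16 weeks. No member is among these 7. The part of these marker differences in the results below was not tested. In bulk exosome RNA, fewer vesicles of one kind and fewer copies per vesicle cannot be told apart.

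The most abundant member was mmu-miR-3068-5p, with rank 5 by mean CPM in lean, rank 17 at 4 weeks and rank 9 at 16 weeks. In the 4 lean libraries it had 21385, 27769, 30712 and 14041 CPM. At 4 weeks it had 6412, 7653, 6701 and 9295 CPM, from 25, 18, 30 and 31 reads. At 16 weeks it had 29232, 14316, 11380 and 15776 CPM. All 4-week libraries lay below all lean and all 16-week ones, while the 16-week and lean ranges overlapped, with 1 of 4 16-week libraries below all lean ones. The 4-week mean was 7515 ± 1300 CPM and the lean mean 23477 ± 7398 (SD, n = 4 each), which is 32.0% of lean. On log2(CPM + 1) the difference of 4 weeks minus lean was -1.60 (SE 0.34). By deposited CPM the coefficient of variation was 17.3% at 4 weeks, 31.5% in lean and 44.8% at 16 weeks. With 18 to 31 reads per 4-week library, counting error is large, so no tighter level is read from this order. It also depended on the scaling. Per 1000 reads of miR-101b-3p the SD was 9.75 around a mean of 32.3 at 4 weeks, against 8.83 around 37.3 in lean and 11.2 around 29.0 at 16 weeks.

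At lower abundance, mmu-miR-872-5p ranked 14 in lean, 38 at 4 weeks and 21 at 16 weeks. It had 5455, 9234, 8399 and 6612 CPM in lean. At 4 weeks it had 2052, 850, 3127 and 2999 CPM, from 8, 2, 14 and 10 reads. At 16 weeks it had 7767, 6082, 5647 and 6038 CPM. All 4-week libraries were below the lowest of the other 8, and all 4 of the 16-week libraries were inside the lean range. The 4-week mean of 2257 ± 1053 CPM was 30.4% of the lean mean of 7425 ± 1709 (SD, n = 4 each), and 4 weeks minus lean was -1.85 on log2(CPM + 1) (SE 0.44). The 4-week level rests on 34 reads in all, 2418 CPM over the summed reads with an exact Poisson interval of 1674 to 3378 (95%, counting error only).

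The third main arm, mmu-miR-674-3p, was low at both HFD times. It had 13093, 9957, 10739 and 8316 CPM in lean. At 4 weeks it had 1026, 425, 5584 and 4798 CPM, from 4, 1, 25 and 16 reads. At 16 weeks it had 5559, 4100, 2481 and 4723 CPM, from 209, 120, 58 and 97 reads. Both HFD groups lay below every lean library and overlapped each other. At 4 weeks the libraries spread over 13.1-fold, with replicates 1 and 2 at 4 reads or fewer, against 1.57-fold in lean and 2.24-fold at 16 weeks. The 4-week mean was 2958 ± 2610 CPM, 28.1% of the lean mean of 10526 ± 1987 (SD, n = 4 each), and 4 weeks minus lean was -2.49 on log2(CPM + 1) (SE 0.69). Without 4-week replicate 2, whose value is 1 read, it was -1.78, and over all libraries left out singly it ran from -3.02 to -1.78.

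**Figure D1:**
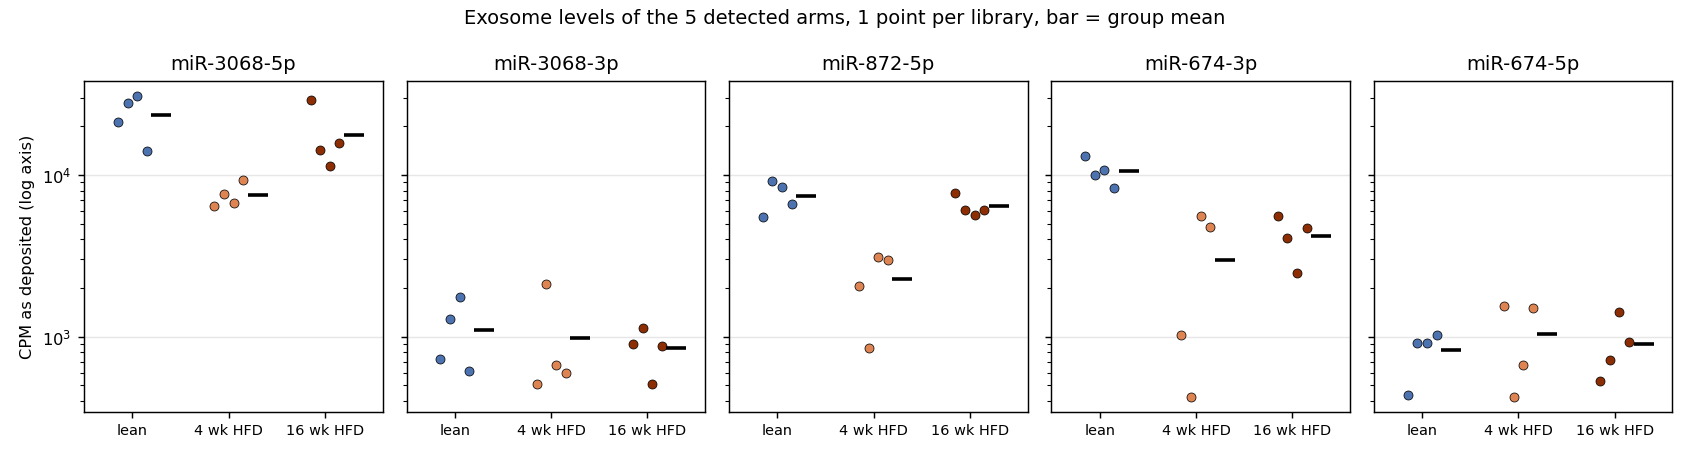
CPM (vertical, log axis) of the 5 arms with reads in lean, 4-week HFD and 16-week HFD exosomes; points are libraries (n = 4 each) and bars group means. The 3 main arms lie below all lean libraries at 4 weeks, miR-674-3p also at 16 weeks, while miR-3068-3p and miR-674-5p overlap in all groups.

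Over all miRNAs, 11.6% of those tested had every 4-week library below every lean one, and limma called 11.6% lower at 4 weeks. The 3 main arms were chosen on this contrast, so nothing is read from their count. Among the 30 miRNAs of highest lean mean CPM, which also uses the lean values, 9 had all 4-week libraries below all lean ones and the median ratio of 4 weeks over lean was 0.808. By the ratio of means, miR-674-3p (0.281) was the second lowest of these 30, after miR-191-3p (0.167), while miR-802-3p (0.288) lay between it and miR-872-5p (0.304) and miR-3068-5p (0.320).

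For the less abundant arms the 4-week and lean libraries overlapped. In lean, mmu-miR-3068-3p had 727, 1282, 1755 and 613 CPM, at 4 weeks 513, 2126, 670 and 600 and at 16 weeks 904, 1128, 513 and 876. Its group ranges overlapped, and the 4-week values are 2, 5, 3 and 2 reads. On log2(CPM + 1), 4 weeks minus lean was -0.30 (SE 0.65). For mmu-miR-674-5p the lean values were 436, 920, 919 and 1022 CPM, those at 4 weeks 1539, 425, 670 and 1499 (6, 1, 3 and 5 reads) and those at 16 weeks 532, 718, 1412 and 925. These ranges overlapped as well, and 4 weeks minus lean was 0.20 (SE 0.64), but -0.80 on CPM without miR-101b-3p and -0.21 with edgeR. These levels are loosely set at this depth: over the summed 4-week reads, miR-674-5p has a Poisson interval of 597 to 1759 CPM. The sixth member, mmu-miR-872-3p, had 0 reads in all 12 libraries, for which the limit set by 3 reads over a group is 36.2 CPM for lean, 213 CPM for 4 weeks and 27.1 CPM for 16 weeks.

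The balance of arms, which does not depend on how the library is scaled, was read per hairpin as the share of 5p in the reads of both arms. For miR-3068 the 5p share was 96.7%, 95.6%, 94.6% and 95.8% in the lean libraries, 92.6%, 78.3%, 90.9% and 93.9% at 4 weeks and 97.0%, 92.7%, 95.7% and 94.7% at 16 weeks. The 4-week shares were all below the lean ones, but each rests on 23 to 33 reads, and the Wilson interval of the lowest runs from 58.1% to 90.3%. For miR-674, where 3p is the main arm, the 5p share was 3.23%, 8.46%, 7.89% and 10.9% in lean, 60%, 50%, 10.7% and 23.8% at 4 weeks and 8.73%, 14.9%, 36.3% and 16.4% at 16 weeks. The highest lean share thus lay above 1 of 4 libraries at each HFD time. At 4 weeks these shares rest on only 10, 2, 28 and 21 reads. The Wilson interval of the 60% runs from 31.3% to 83.2%, and that of the 50% from 9.45% to 90.5%. Over summed reads 5p took 15 of 61 reads at 4 weeks (24.6%, Wilson interval 15.5 to 36.7%), against 71 of 933 in lean (7.61%, 6.08 to 9.49%). Counting intervals leave out the spread between libraries. The main arms were chosen as low at 4 weeks and enter these shares, so the 4-week shares partly follow from the choice and are a description.

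The 16-week libraries played no part in the choice, but the lean values of the main arms did and enter these shares. The tests of 16 weeks against lean are therefore not independent of the choice. Between these groups, the mean 5p share of miR-674 was 19.1% ± 11.9 at 16 weeks and 7.63% ± 3.22 in lean (SD, n = 4 each). The difference of 11.4 percentage points missed the threshold, with 3 of 4 16-week libraries above all lean ones (exact permutation test, 2-sided, p = 0.0571, and 0.171 adjusted over 3 hairpins; the smallest p that 70 assignments allow is 0.0286). Without 16-week replicate 3, the library with the highest share, it was 5.71 points (exact permutation p = 0.114). For miR-3068 the shares were 95.03% ± 1.81 at 16 weeks and 95.7% ± 0.869 in lean, a difference of -0.65 points (exact permutation p = 0.657, adjusted 0.986). For miR-872 every read was 5p in every library, 726 reads at 16 weeks and 654 in lean, which allows a 3p share of up to 0.413% at 16 weeks and 0.459% in lean.

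**Figure D2:**
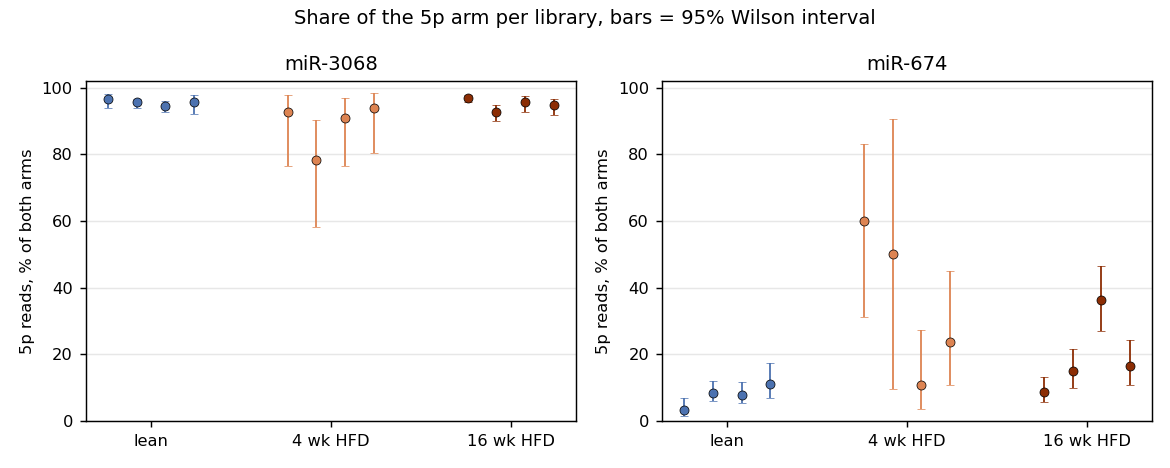
Share of 5p reads among the reads of both arms (vertical, percent) per library for miR-3068 and miR-674, with 95% Wilson intervals; n = 4 libraries a group. Lean libraries lie between 94.6% and 96.7% for miR-3068 and between 3.23% and 10.9% for miR-674, and the 4-week intervals are wide because few reads stand behind them.

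The comparison of 16 weeks with lean asked whether the main arms were still low after longer feeding. The lean libraries that helped to choose the members enter it, so it is not independent of the choice. For miR-674-3p the level was 4216 ± 1302 CPM at 16 weeks and 10526 ± 1987 in lean (SD, n = 4 each), 40.1% of lean, with 4 of 4 16-week libraries below all lean ones. In the limma fit of all 12 libraries the difference was -1.36 on log2(CPM + 1) (SE 0.69, 95% interval -2.85 to 0.12), which missed the threshold (unadjusted p = 0.0692, limma adjusted p = 0.324 over 267 miRNAs). That fit shares 1 estimate of spread with the scattered 4-week libraries. With the 2 groups alone the difference was the same with an SE of 0.29 and limma called it lower (adjusted p = 0.0165), as it did 4.87% of the miRNAs tested (3% higher). Count tests on the recovered reads also called it lower, edgeR with -1.31 (adjusted p = 0.0214) and DESeq2 with -1.69 (adjusted p = 0.00331). Over the alternatives run, its adjusted p ranged from 0.00331 to 0.615.

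The other main arms stood nearer to lean. Levels of miR-3068-5p were 17676 ± 7918 CPM at 16 weeks and 23477 ± 7398 in lean, a difference of -0.44 on log2(CPM + 1) (SE 0.34, 95% interval -1.17 to 0.29, limma adjusted p = 0.534). Those of miR-872-5p were 6383 ± 943 CPM at 16 weeks and 7425 ± 1709 in lean, a difference of -0.20 (SE 0.44, interval -1.14 to 0.74, limma adjusted p = 0.906). Neither passed the test, and each interval still holds a level lower than lean by 1 on the log2 scale. The less abundant arms gave -0.28 for miR-3068-3p (interval -1.67 to 1.11) and 0.10 for miR-674-5p (interval -1.28 to 1.48). In all, limma called 0 of the 5 tested members (0 at an unadjusted p under 0.05), edgeR and DESeq2 each called 1, miR-674-3p. Over all miRNAs tested, limma called 1.5% lower and 1.12% higher at 16 weeks, edgeR 16.7% lower and 18.1% higher and DESeq2 13.2% lower and 2.54% higher of 197, so 1 of 5 members is near the background of both count tests. Non-overlap below lean, seen in 1 of 5 members, was found in 9.74% of the miRNAs tested. Among the 30 miRNAs of highest lean mean CPM it was found in 6, with miR-674-3p among them. Of these 30, 17 had a lower mean at 16 weeks than in lean. Nothing is read from the members' count. The median difference was -0.28 over the 5 members and -0.18 over all tested miRNAs, and miR-674-3p stood at -1.18 relative to the median of all.

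**Figure D3:**
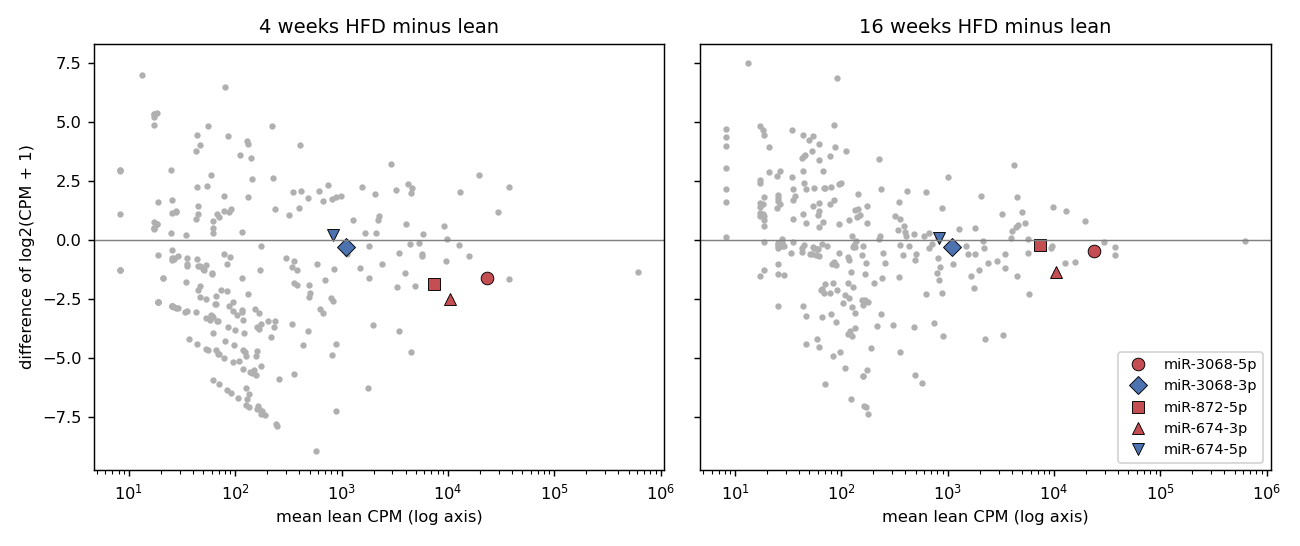
Difference of log2(CPM + 1) (vertical) at 4 and at 16 weeks of HFD minus lean against mean lean CPM (horizontal, log axis) for tested miRNAs, with the 3 main arms in red and the 2 other detected arms in blue; 4 tested miRNAs at 0 in lean are not drawn. The main arms lie at -1.60, -1.85 and -2.49 at 4 weeks, and at 16 weeks miR-674-3p stays lowest of them at -1.36.

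Set against 4 weeks, whose libraries the choice used, 16-week levels of miR-3068-5p were 2.35 times and those of miR-872-5p 2.83 times as high as at 4 weeks, with 4 of 4 16-week libraries above all 4-week ones for both. The same non-overlap upward was seen in 7.87% of all tested miRNAs, and nothing is read from the members' count. For miR-674-3p the ratio was 1.43 with overlapping libraries. These ratios depended on the scaling: without miR-101b-3p in the total they were 4.53 for miR-3068-5p, 5.22 for miR-872-5p and 2.53 for miR-674-3p, but per miR-101b-3p read 0.899, 1.16 and 0.678, so that for miR-3068-5p and miR-674-3p the direction turned. In the order of levels by deposited CPM, lean came first for miR-674-3p, and the 16-week and 4-week groups were within each other's spread. For miR-3068-5p and miR-872-5p lean and 16 weeks overlapped on that scale, and 4 weeks came last. Per 1000 miR-101b-3p reads the means of miR-3068-5p were 37.3 in lean, 32.3 at 4 weeks and 29.0 at 16 weeks, with 16 weeks last and all groups overlapping.

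How low the 4-week values stood depended on what they were scaled to. When CPM was recomputed over all miRNAs except miR-101b-3p, the means at 4 weeks and in lean were 10172 and 66657 for miR-3068-5p, 3146 and 20609 for miR-872-5p and 4296 and 29002 for miR-674-3p. These are ratios of 0.153, 0.153 and 0.148, lower than with the deposited CPM. The differences on the log2 scale were then -2.60, -2.86 and -3.49, while the median of all tested miRNAs moved to -2.05, against -1.27 with the deposited CPM. Relative to that median they stood at -0.55, -0.81 and -1.44, and with the deposited CPM at -0.33, -0.58 and -1.22. The less abundant arms lay above the median on both scales, miR-3068-3p by 0.75 and 0.97 and miR-674-5p by 1.25 and 1.47. The median also covers miRNAs with no read in a group: 66 of the 267 tested were at 0 in all 4-week libraries, against 4 in lean. Over the 72 miRNAs with enough reads for edgeR the median was -0.03, and the main arms lay at -2.25 (miR-3068-5p), -2.25 (miR-872-5p) and -2.39 (miR-674-3p).

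Counted per 1000 reads of miR-101b-3p in the same library, the picture changed. At 4 weeks miR-3068-5p had 40.5, 36.3, 18.2 and 34.2, against 35.3, 44.6, 43.8 and 25.6 in lean, and these ranges overlapped widely. For miR-872-5p the 4-week values were 12.9, 4.03, 8.49 and 11.04, against 9.02, 14.8, 11.97 and 12.1 in lean, with 2 of 4 4-week libraries below all lean ones. Its ratio of means was 0.762, and that of miR-3068-5p 0.865. For miR-674-3p the 4-week values were 6.47, 2.02, 15.2 and 17.7 and the lean values 21.6, 16.0, 15.3 and 15.2, a ratio of 0.607 with 3 of 4 4-week libraries below all lean ones. Of those, replicate 3 lay just under the lowest lean library. At 16 weeks miR-674-3p had 8.46, 6.18, 4.34 and 9.02 per 1000, all below the lowest lean library, a ratio of 0.411 to lean. On that scale limma gave -1.32 (SE 0.60) for 16 weeks minus lean, which missed the threshold (unadjusted p = 0.0441, adjusted p = 0.282). Of the 266 miRNAs tested so, 45 had an unadjusted limma p under 0.05, and limma called 2 higher and 4 lower. How many had all 16-week libraries below all lean ones on this scale was not counted. The 2 less abundant arms had ratios of 4 weeks over lean of 2.52 (miR-3068-3p) and 3.55 (miR-674-5p) by this yardstick, against 0.893 and 1.25 with the deposited CPM and 0.408 and 0.608 without miR-101b-3p, so that their direction turned with the scaling.

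**Figure D4:**
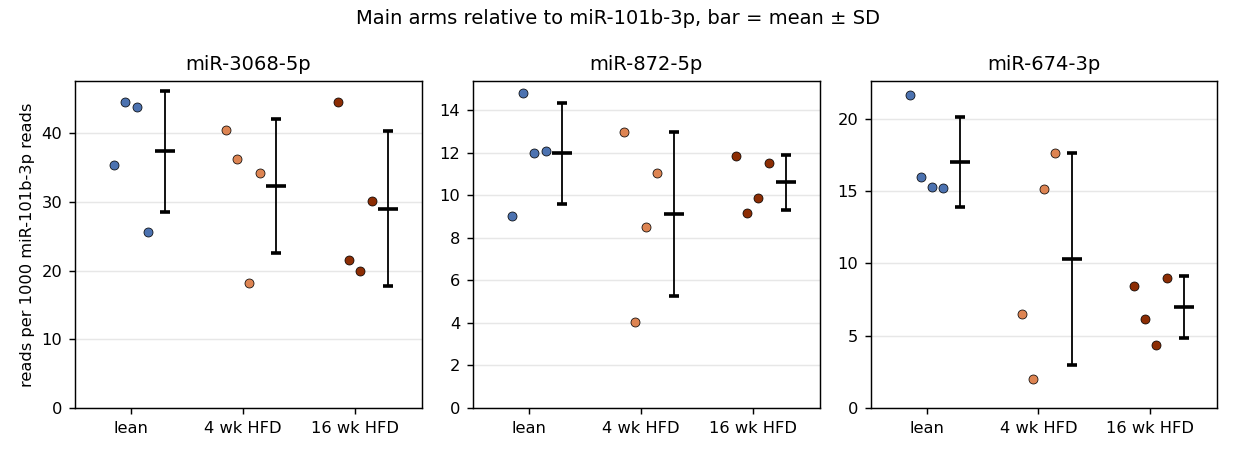
Reads of the 3 main arms per 1000 miR-101b-3p reads (vertical) in lean, 4-week and 16-week libraries; points are libraries, bars mean ± SD (n = 4 each). The 4-week and lean libraries overlap for miR-3068-5p and miR-872-5p, and all 16-week libraries of miR-674-3p (4.34 to 9.02) lie below the lean ones (15.2 to 21.6).

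**Figure D5:**
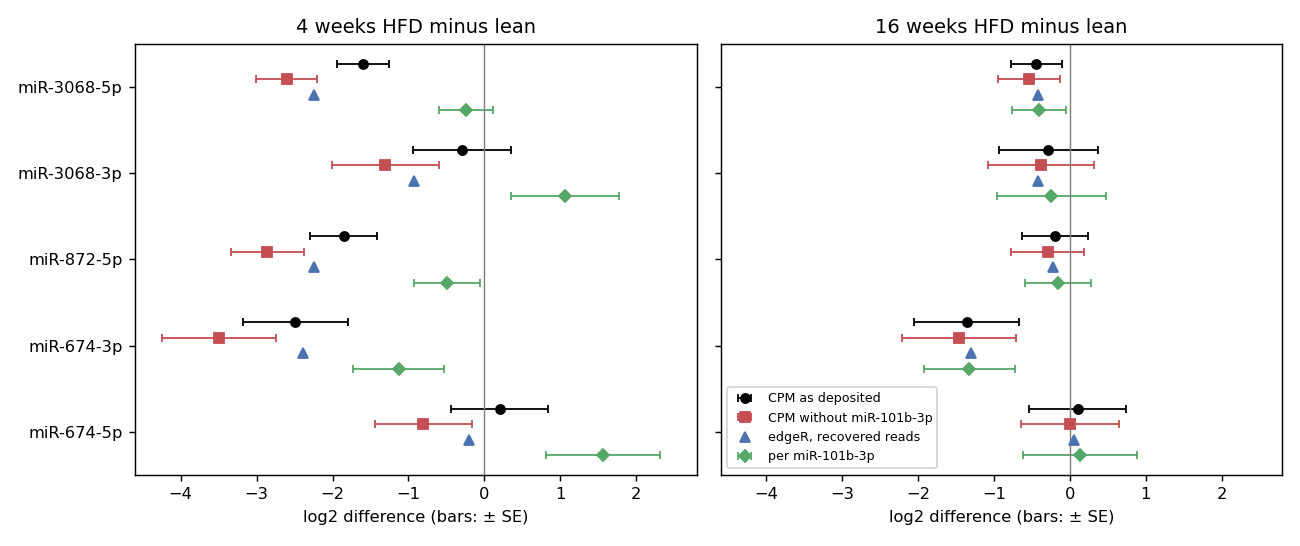
Log2 difference (horizontal, bars ± SE where the test gives one) of the 5 detected arms at 4 weeks minus lean and at 16 weeks minus lean under 4 scalings: deposited CPM, CPM without miR-101b-3p, edgeR on recovered reads and values per miR-101b-3p. The 4-week differences spread widely with the scaling (miR-3068-5p from -2.60 to -0.24), whereas those at 16 weeks stay close together (miR-674-3p from -1.46 to -1.31).

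Among the 57 other miRNAs with reads in all 12 libraries, miR-101b-3p was the most like miR-3068-5p (Pearson r = 0.82 of log2(CPM + 1) over 12 libraries) and also the most like miR-872-5p (r = 0.90). Next for miR-3068-5p came miR-872-5p itself (0.81) and miR-802-3p (0.74), an arm of the hepatic miR-802 hairpin. For miR-872-5p the next were miR-674-3p (0.85) and miR-1843b-5p (0.84). For miR-674-3p they were miR-1843b-5p (0.92), miR-872-5p (0.85) and miR-664-3p (0.81). The points share libraries, depth and a common total, and the members were chosen for the same 4-week difference, so these are descriptions. By Spearman's rho of the CPM, miR-101b-3p and miR-872-5p kept their places for miR-3068-5p (0.87 and 0.85), while miR-872-5p and miR-674-3p were no longer among each other's 3 most alike (0.59). Nor was miR-1843b-5p for either of them (0.57 for miR-872-5p and 0.64 for miR-674-3p).

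Within libraries the main arms did not keep 1 ratio. Reads of miR-674-3p per read of miR-872-5p were 2.40, 1.08, 1.28 and 1.26 in lean, 0.5, 0.5, 1.79 and 1.6 at 4 weeks and 0.72, 0.67, 0.44 and 0.78 at 16 weeks. All 16-week libraries lay below all lean ones. Of the 4-week libraries 2 lay below the lean range and 2 inside it. The 2 low ones are 4 reads over 8 and 1 read over 2, so they are loosely set and no split is read from them. The ratio of miR-674-3p to miR-872-5p holds the same miR-674-3p values as above, and how often ratios of other miRNAs separate so was not counted. Reads of miR-872-5p per read of miR-3068-5p overlapped in all groups, with 0.33 ± 0.10 in lean, against 0.31 ± 0.15 after 4 weeks of HFD and 0.39 ± 0.10 after 16 weeks (SD, 4 libraries per group). The 6 members together held 4.33% ± 0.975 of the lean CPM, against 1.47% ± 0.386 of that of the 4-week libraries and 3.00% ± 0.975 of that of the 16-week libraries.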

How the data were processed

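Small RNA libraries of hepatocyte exosomes were analysed in 3 groups of 4 (lean, 4 and 16 weeks of HFD). The deposited values are CPM of each listed miRNA, 1 column per library, computed by the authors; cutadapt 1.13, edgeR 3.16.5 and mm10 are named per the submitters' processing notes. Neither the aligner nor the miRNA set, nor how reads matching several miRNAs were counted, is given in the sources used here. Of 2664 values above 0, 2617 (98.2%) were whole multiples of the CPM of 1 read of their library (relative tolerance 1e-06). The others lie in 7 miRNAs, whose lean and 16-week values look exchanged. They were left out of the count tests only. Those that passed the filter stayed in the limma fits as deposited, such as miR-155-5p (-4.21 for 16 weeks minus lean). They therefore enter the limma counts, the shares of non-overlap and the medians over all tested miRNAs.

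The main test was limma (version 3.58.1, in R 4.3.3) with a mean-variance trend and all 12 libraries in 1 fit. It used log2(CPM + 1) of the 267 miRNAs that reached 10 CPM in 4 or more libraries, with Benjamini-Hochberg adjustment over all tested and a threshold of 0.05. For miRNAs with few reads such differences depend on the pseudocount, and a library at 0 can make them large. The median of 4 weeks minus lean was -1.27 with a pseudocount of 1 and -0.23 with 50. On recovered reads edgeR 4.0.16 (quasi-likelihood) tested 72 miRNAs, and DESeq2 1.42.0 was an alternative; the count tests called miR-674-3p where the main test did not. Arm shares were compared by exact permutation with scipy 1.17.1, and hairpins folded with RNAfold 2.7.2. The members, lists and tests were chosen with earlier results of these data known. Named besides the members are miRNAs of equal seed, the 3 most alike to each main arm, miR-101b-3p and markers; miR-191-3p was named after its value was seen.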

Additional observations from a re-analysis of the deposited data

Results flagged for a closer look

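In 1 of 21 sets of 4 libraries (CPM of 5 arms in 3 groups and the arm shares that vary), 1 library stood far from the other 3 by Dixon's test. It was miR-3068-3p in 4-week replicate 2, at 2126 CPM, against 513 to 670 CPM in the other 4-week libraries. The value is 5 reads, and the others are 2 or 3 reads. Chance gives about 1 such set in 20.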

How the results depend on the processing

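For 16 weeks against lean, miR-3068-5p, miR-872-5p and miR-3068-3p kept their direction and missed the threshold in all 24 alternatives run. The difference of miR-674-3p kept its direction in all 24 (-1.70 to -1.13) and passed the threshold in 3: the 2 groups alone (-1.36, adjusted p = 0.0165), edgeR (-1.31, adjusted p = 0.0214) and DESeq2 (-1.69, adjusted p = 0.00331). Over all 24, its adjusted p ranged up to 0.615. Several of the 24 could not turn a direction, for this or the other arms. Other filters, the 2 groups alone, no trend, the replicate block and leaving out a 4-week library keep the difference itself and change only its SE. The lean values that helped to choose the members enter all 24. The sign of miR-674-5p turned with DESeq2 (-0.33) and without lean replicate 1 (-0.18) or 16-week replicate 3 (-0.15), with 0.32 as the highest value on leaving out 1 library. The arm share difference of miR-3068 ranged from -1.30 to 0.13 points on leaving out single libraries, turning without 16-week replicate 2. It also turned with the share of summed reads (0.19 points). A fit with the replicate number as a replicate block gave 3 higher and 4 lower at 16 weeks, as the fit without it, and changed no member's call there (miR-674-3p adjusted p = 0.353). Whether the numbers pair libraries is not given in the labels. Same-numbered libraries deviated from their group means with correlations of -0.07 to 0.06. With few reads behind many values, this cannot exclude a shared mouse or preparation. Counts over all miRNAs moved more. Higher at 16 weeks than in lean were 3 miRNAs, but 7 with a pseudocount of 50, 8 with quantile normalization, 8 with the 2 groups alone, 13 with edgeR, 5 with DESeq2 and 2 to 8 without single libraries (8 without lean replicate 4). Lower were 4, but 9 with a pseudocount of 50, 2 with the stricter filter (100 CPM in 6 libraries), 9 with quantile normalization, 13 with the 2 groups alone, 11 without the trend, 12 with edgeR, 26 with DESeq2 and 4 to 9 without single libraries (9 without lean replicate 4, 7 without 16-week replicate 4). At 4 weeks against lean 25 were higher, but 13 on CPM without miR-101b-3p and 44 per miR-101b-3p, and 31 lower, but 16 with the stricter filter, 50 without miR-101b-3p and 19 per miR-101b-3p. At 16 against 4 weeks 17 were higher, but 10 with no filter, 10 with the stricter one, 28 without miR-101b-3p, 29 with quantile normalization, 7 per miR-101b-3p and 12 to 26 without single libraries (26 without 4-week replicate 4), and 11 lower, but 19 with a pseudocount of 50, 6 without miR-101b-3p, 18 with DESeq2 and 27 per miR-101b-3p. The scaling per miR-101b-3p was added after the data were seen. The cause of these shifts was not tested. Depth limits the 4-week values of miR-674-3p, miR-872-5p and the less abundant arms most, where 1 library can rest on 1 or 2 reads.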
